A study of Mus musculus with 8 samples.

Results

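In neonatal bone, cells positive for GFP of the *Nes-Gfp* transgene and without surface Pdgfrα were compared with cells negative for both. The GFP+ Pdgfrα- cells and the GFP- Pdgfrα- cells, called double-negative here, each had 2 libraries, so that 4 of the 8 libraries of the series and all 15880 genes of its table enter the comparison. All libraries came from heterozygous *Nes-Gfp* pups on a C57BL/6 background, taken on postnatal day 1 without treatment. In this line GFP stands under regulatory elements of nestin, so that it reports the activity of the transgene and not of the mouse *Nes* locus. Long bones, with scapulae in the protocol and sterna in the design text, were crushed and digested with collagenase, and cells negative for CD45, CD31 and Ter119 (antigens of blood cells, endothelium and the red cell lineage) were sorted by GFP and Pdgfrα. Each library was made from the bones of 3 pooled pups and from 15000 to 80000 cells, whose RNA was amplified to cDNA.

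Nestin is an intermediate filament protein of neural progenitors, of muscle precursors and of several perivascular cells. Newborn bone marrow is crossed by nerves and vessels, whose Schwann cell precursors, pericytes and smooth muscle cells can be distinguished by transcription factors and contractile proteins. Pdgfrα marks mesenchymal cells of the marrow, and a stromal sort that is negative for it can hold any cell that the depletion antibodies did not remove.

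The table lists a normalized value per gene and library, which equals the reads of the gene plus 0.5, divided by an effective library size and scaled to 1e6. All values (100%) gave whole reads within 0.01 reads, with totals of 3644103 and 3427644 for GFP+ Pdgfrα- cells and of 4058258 and 5302762 for double-negative cells. A gene with 3 reads had a value between 0.825 and 1.005 in these libraries. This floor covers counting error only, since amplified reads are not independent molecules. Where neither library of a population held a read, a fold is given as a lower bound against 3 reads over both libraries. Log2 fold changes put GFP+ over GFP- cells and were taken on log2(value + 1), where changes between low values come out too small.

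The sort was first checked against the genes behind it. *Nes* (ENSMUSG00000004891; chromosome 3, 87775000 to 87784373, plus strand) had values of 149 and 176 in the sorted GFP+ libraries and of 3.59 and 9.08 in the double-negative libraries. Both GFP+ libraries lay above both GFP- libraries, and the log2 fold change was 4.58 (standard error 0.34, adjusted p = 3.13e-07, limma). *Pdgfra* (ENSMUSG00000029231; chromosome 5, 75548316 to 75594229, plus strand) was 18.1 and 10.4 against 3.30 and 4.36. Its transcript was low in both populations, whereas it reached 733 and 754 in GFP+ Pdgfrα+ cells, but it was not equal in the populations sorted as negative (log2 fold change 1.62, adjusted p = 4.95e-05, limma). *Ptprc*, which encodes CD45, was 1.34 and 0.900 in GFP+ Pdgfrα- cells and 11.3 and 6.72 in double-negative cells. *Pecam1*, which encodes CD31, was 4.25 and 18.1 against 12.8 and 27.9, with overlapping libraries.

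The double-negative libraries went against the label of a stromal population. Genes of the red cell lineage, which the Ter119 antibody should deplete, were abundant in both of them. The summed value of the 18 erythroid genes of a list of 20 was 20984 and 29333 in double-negative cells and 295 and 188 in GFP+ Pdgfrα- cells. In the same libraries the 18 listed genes of interstitial matrix, typical of stroma, summed to 1789 and 2272 in double-negative and 12184 and 11621 in GFP+ Pdgfrα- cells. These libraries also stood apart in composition. Mitochondrially encoded genes took 36.9% and 39.1% of their reads, against 24.2% and 22.2% for GFP+ Pdgfrα- cells, and 1967 and 1692 genes had no read in them, against 689 and 651. The comparison therefore sets GFP+ Pdgfrα- cells against cells with erythroid transcripts, and the part of the erythroid cells in any single difference was not tested. In a bulk sample, fewer cells of a type and less RNA per cell cannot be told apart.

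Of the 15880 genes, 8527 (53.7%) passed the threshold of limma, an adjusted p of 0.05 or less, with all 8 libraries in the fit. 4787 genes (30.1%) were higher and 3740 (23.6%) were lower in GFP+ Pdgfrα- cells. Differences were large, with 6769 of the called genes at an absolute log2 fold change of at least 1, 453 at 4 or more and 144 at -4 or less. In no called gene did the libraries of the populations overlap, and the same was true of 76.4% of all genes.

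The balance of higher and lower genes depended on how the libraries were scaled. The median log2 fold change of all genes was 0.15 on the deposited scale, -0.30 after each library was centred on its median, and -0.14 after quantile normalization. After median centring 3550 genes were called higher and 5569 lower, and after quantile normalization 3871 and 4419. The rescaling without mitochondrial genes moved the balance the other way, to 5200 higher and 3290 lower (median 0.27). All 3740 genes called lower on the deposited scale were also called lower after centring. This is no test of these calls, since centring shifted every log2 fold change by -0.45. Of the 4787 called higher, 3550 were still called higher, and 37 turned below 0 without being called lower. The calls of a list are to be read against 30.1% of all genes higher and 23.6% lower, and its median against 0.15. Among the listed genes, no called member changed its sign on any of the scales tried, which were the deposited one, median centring, quantile normalization, a rescaling without mitochondrial genes, and edgeR and voom on the recovered reads.

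**Figure D1:**
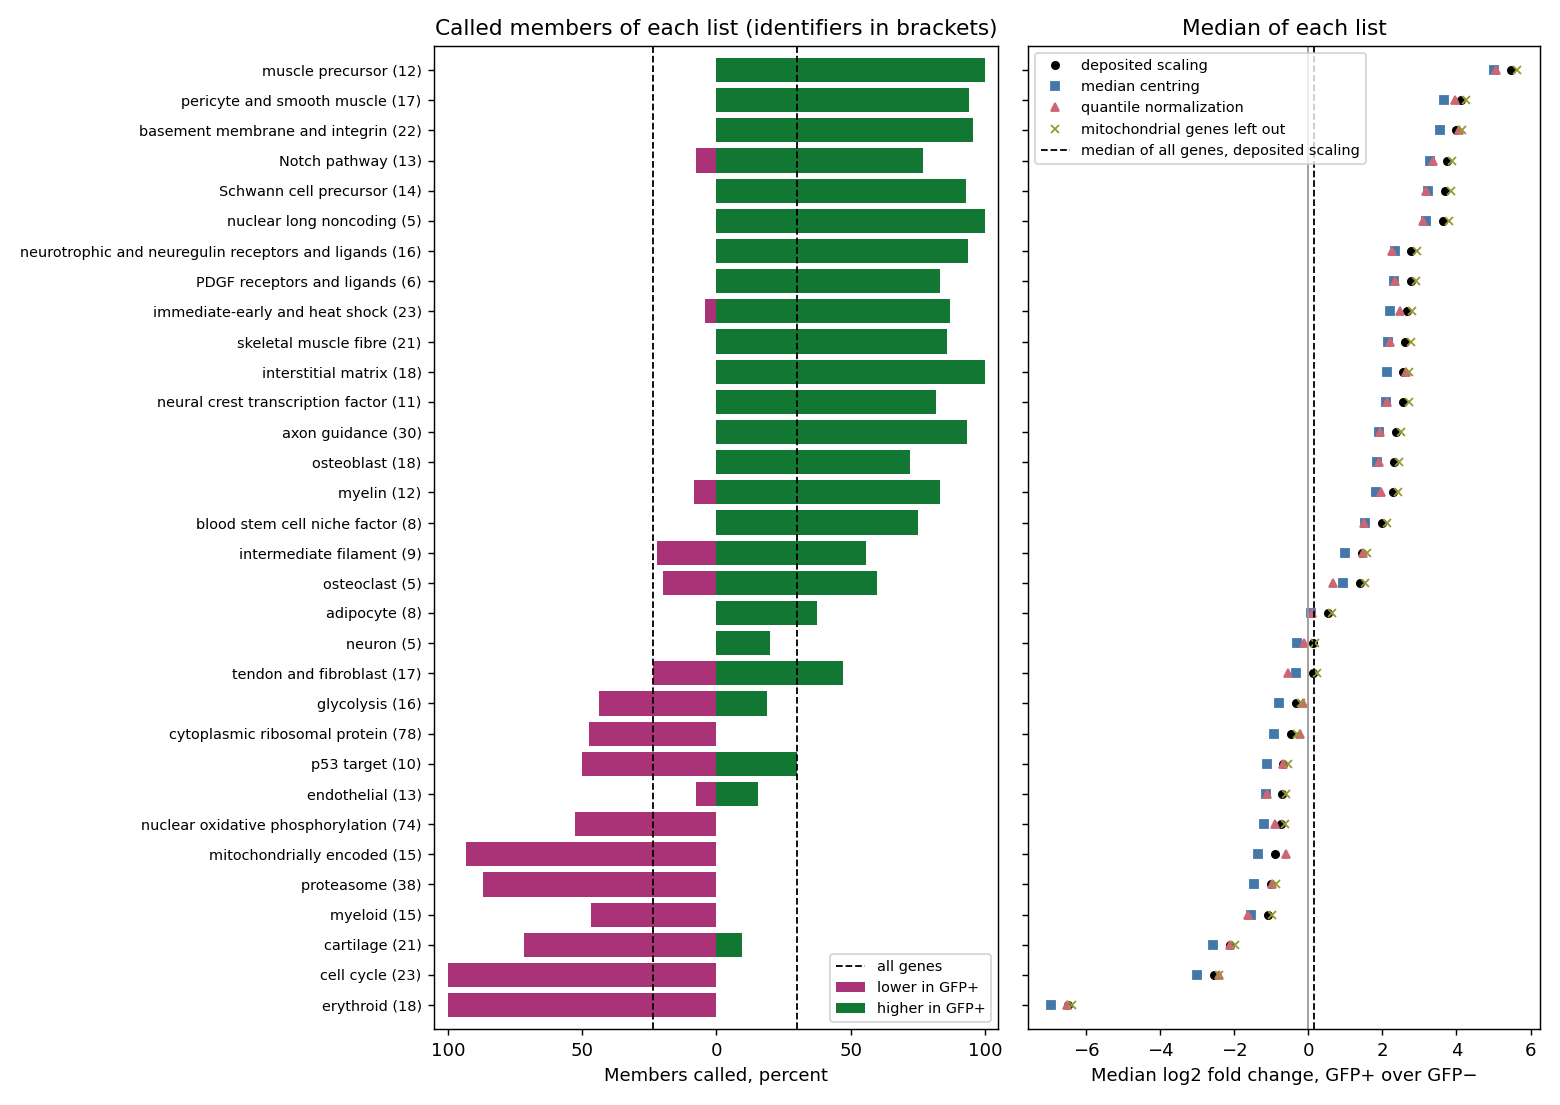
Left, percent of the members of each gene list called higher (green) or lower (purple) with GFP among Pdgfrα- cells, for lists with at least 5 identifiers, with dashed lines at the percentages of all genes (30.1% and 23.6%). Right, median log2 fold change of each list on 4 scales, where the erythroid list lies at -6.49 and the muscle precursor list at 5.47 on the deposited scale.

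The largest decreases were those of red cell genes. *Hba-a2* (ENSMUSG00000069917; chromosome 11, 32196489 to 32197301, plus strand), an alpha-globin gene, had values of 1709 and 2880 in the double-negative libraries and of 16.9 and 11.4 in GFP+ Pdgfrα- cells. *Hba-a1* and *Hba-a2*, like *Hbb-b1* and *Hbb-b2*, are near-identical copies whose reads can be split between them, so that their single values are uncertain. The log2 fold change of *Hba-a2* was -7.22 (standard error 0.35, adjusted p = 9.54e-09, limma), and those of *Hba-a1*, *Hbb-b1* and *Hbb-b2* were -7.27, -7.12 and -7.22. *Slc4a1* (ENSMUSG00000006574; chromosome 11, 102210138 to 102227517, minus strand), which encodes the anion exchanger band 3 of the red cell membrane, was 2407 and 2990 in double-negative cells. In GFP+ Pdgfrα- cells it was 24.2 and 12.5, a log2 fold change of -7.19 (standard error 0.29, adjusted p = 2.30e-09, limma). In each of these genes the populations lay far apart, while the libraries of one population differed by little more than a factor of 2.

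The red cell genes of other kinds followed. *Alas2*, the erythroid enzyme that starts heme synthesis, was 292 and 390 in double-negative against 4.98 and 5.79 in GFP+ Pdgfrα- libraries (log2 fold change -5.73, adjusted p = 1.75e-07, limma). *Rhag* and *Kel* encode blood group antigens, *Hemgn* a nuclear protein of blood precursors, and *Car1* and *Car2* carbonic anhydrases, and their log2 fold changes were -6.89, -6.40, -6.82, -6.43 and -6.55. All 18 measured members of the erythroid list were called lower, with a median of -6.49 and a range from -7.27 to -3.82 (-6.65 relative to the median of all genes). Per kilobase of exon, *Hbb-b1* was the most abundant member. In the Pdgfrα+ libraries the list summed to 94.2 and 88.5 in GFP+ and 103 and 93.3 in GFP- cells, so that the double-negative libraries were the high ones among all 8.

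Some genes outside the erythroid list were among the 15 largest decreases. *Ctse*, which encodes the aspartic protease cathepsin E, was 1098 and 1215 in double-negative and 8.86 and 5.79 in GFP+ Pdgfrα- cells (log2 fold change -7.14). *Ces2g*, a carboxylesterase gene, was 325 and 302 against 0.850 and 2.44 (log2 fold change -6.96). Both lay far above the floor in double-negative cells. *Ikzf1*, which encodes the blood transcription factor Ikaros, was 618 and 616 against 4.98 and 5.02 (log2 fold change -6.69). *Spn*, the gene of the leukocyte surface protein CD43, was 170 and 147 against 0.121 and 1.16 (log2 fold change -6.68, adjusted p = 1.13e-07, limma). Outside these 15, *Kit*, the receptor of stem cell factor, which early red cell precursors carry as well as mast cells, fell from 347 and 266 to 13.2 and 9.13 (log2 fold change -4.67, adjusted p = 1.25e-07, limma). Of 9 listed osteoclast genes 5 had values, and 3 of these were called higher and 1 lower (median 1.40). The lower one, *Acp5*, the gene of tartrate-resistant acid phosphatase of osteoclasts, was 97.2 and 108 against 1.09 and 1.41 (log2 fold change -5.53).

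Markers of other blood lineages were low. Of 23 listed myeloid genes 15 had values, 7 of them (46.7%, against 23.6% of all genes) were called lower and none higher, and the median was -1.08. The count was 11 after median centring and 12 after quantile normalization, where 35.1% and 27.8% of all genes were lower, and as few as 3 with a library left out. Their summed value was 121 and 111 in the double-negative libraries and 43.6 and 43.3 in GFP+ Pdgfrα- cells, with *S100a9* the most abundant per kilobase, at 17.7 and 11.4 against 5.95 and 4.76. Most of these genes had few reads. *Tyrobp*, a defining marker of the list, was close to the floor in all 4 libraries (1.09 and 0.386 in GFP+ Pdgfrα- and 1.87 and 0.590 in double-negative cells). The myeloid granule gene *Mpo* was 13.6 and 8.14 in double-negative cells and 0.121 and 3.99 in GFP+ Pdgfrα- cells (fold change -2.29 on the log2 scale; adjusted p = 0.00991, limma; this call was not kept in every alternative). Lymphoid and megakaryocyte genes were few in the table. Of 3 measured lymphoid genes *Blnk* was called, and it was higher in GFP+ Pdgfrα- cells (6.43 and 3.47 against 0.431 and 0.590). *Cd79a* was 3.52 and 0.386 in GFP+ Pdgfrα- and 0.718 and 3.42 in double-negative cells, within the spread of the libraries. Of 3 megakaryocyte genes *Gp9* was called lower, at 0.364 and 0.129 against 4.45 and 5.54, and the list summed to 1.58 and 1.41 in GFP+ Pdgfrα- and 6.46 and 10.7 in double-negative cells.

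The listed genes of cell division were lower in GFP+ Pdgfrα- cells without exception. All 23 of 23 listed genes were called lower, with a median of -2.56 beside -2.71 relative to all genes. *Mki67* (ENSMUSG00000031004; chromosome 7, 142881471 to 142908062, minus strand), which encodes the proliferation antigen Ki-67, had values of 5385 and 6467 in double-negative and 571 and 477 in GFP+ Pdgfrα- cells. The populations did not overlap, and the log2 fold change was -3.50 (standard error 0.15, adjusted p = 3.44e-09, limma). *Rrm2*, a subunit of the enzyme that makes deoxyribonucleotides, was 426 and 416 against 23.2 and 27.9 (log2 fold change -4.0). *Top2a*, the topoisomerase of dividing cells, was 1109 and 996 against 191 and 138 (log2 fold change -2.69). The amount differed between genes. *Pcna*, *Ccna2* and *Ccnb1*, for the replication clamp and cyclins A2 and B1, had log2 fold changes of -2.84, -2.92 and -2.51. The summed value of the list was 11133 and 12251 in double-negative cells, 1584 and 1393 in GFP+ Pdgfrα- cells and at most 905 in the Pdgfrα+ libraries, and the erythroid list was high in the same 2 libraries. Whether the erythroid cells carried the division genes was not tested.

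Negative medians were also found for the lists of mitochondrially encoded, oxidative phosphorylation, ribosomal protein and proteasome genes. Their amounts were smaller and lie closer to the shift between scales. Of 15 mitochondrially encoded genes 14 were called lower, with a median of -0.91, and as few as 9 were called when a library was left out. *mt-Rnr2*, the large mitochondrial ribosomal RNA, had the highest value of all genes, 316794 and 364244 in double-negative and 155742 and 137404 in GFP+ Pdgfrα- cells (fold change -1.22 on the log2 scale; adjusted p = 0.000607, limma). After quantile normalization it ranked first in every library and could show no difference. Of 74 nuclear genes of oxidative phosphorylation 39 (52.7%, against 23.6% of all genes) were called lower and none higher, with a median of -0.75 (-0.90 relative to all genes). The count was 60 after median centring, 46 after quantile normalization and as few as 19 with a library left out. *Atp5b*, the beta subunit of ATP synthase, was 2764 and 2386 against 1045 and 1054 (log2 fold change -1.29, adjusted p = 1.66e-05, limma). *Cox4i1*, in contrast, had overlapping libraries (97.2 and 115 against 113 and 80.4).

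Calls of cytoplasmic ribosomal protein genes depended on the scale. 37 of 78 (47.4%, against 23.6% of all genes) were called lower and none higher, with a median of -0.46. The count was 71 after median centring, where 35.1% of all genes were lower, and 20 after quantile normalization, where 27.8% were. With a library left out it was as low as 20. *Rpl4* was 2857 and 2367 in double-negative and 1788 and 1631 in GFP+ Pdgfrα- cells (log2 fold change -0.61), and the largest decrease was that of *Rpsa*, from 619 and 783 to 241 and 220 (log2 fold change -1.59, adjusted p = 1.58e-06, limma). *Rpl10* and *Rps4x* were not called on the deposited scale, and their sign turned between scales, from -0.41 to 0.34 and from -0.74 to 0.05. *Rpl10* was called higher without replicate 1 of the double-negative cells (0.49, adjusted p = 0.0149, limma) and lower without their replicate 2 (-0.41, adjusted p = 0.0343, limma). *Rps4x* was called lower after median centring (adjusted p = 0.000774, limma), with the replicate block for the pairing of pools (adjusted p = 0.0335, limma) and with voom (adjusted p = 0.0167, limma). Proteasome genes were lower more uniformly, 33 of 38 (86.8%, against 23.6% of all genes), with a median of -1.02. The count was 36 after median centring and 33 after quantile normalization, where 35.1% and 27.8% of all genes were lower. *Psmd1*, a regulatory subunit, was 249 and 241 against 92.9 and 107 (log2 fold change -1.29), and *Psma8*, a subunit better known from testis, was at 0 reads in both GFP+ Pdgfrα- libraries and at least 9.18-fold lower.

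Glycolytic enzymes went both ways. 3 of 16 (18.8%, against 30.1% of all genes) were called higher and 7 (43.8%, against 23.6%) lower, and after median centring 2 were higher and 11 lower. The list's median of -0.34 lay between -0.80 and -0.15 on the other scales. *Hk1*, a hexokinase, was 262 and 210 in double-negative and 23.4 and 28.4 in GFP+ Pdgfrα- cells (fold change -3.14 on the log2 scale; adjusted p = 1.06e-07, limma). *Ldha*, lactate dehydrogenase A, was 500 and 421 against 151 and 117 (log2 fold change -1.78). A few enzymes ran the other way. *Pkm2*, the muscle-type pyruvate kinase gene, was the largest increase, 118 and 152 in GFP+ Pdgfrα- against 15.9 and 27.9 in double-negative cells (log2 fold change 2.60). *Gapdh* (103 and 99.4 in GFP+ Pdgfrα- against 115 and 144 in double-negative cells) and *Aldoa* (119 and 119 against 119 and 90.4) were not called, and *Aldoa* changed sign with the scale.

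Genes of muscle precursors were among the largest increases in GFP+ Pdgfrα- cells. *Pax7* (ENSMUSG00000028736; chromosome 4, 139292977 to 139389445, minus strand), the transcription factor of satellite cells, the stem cells of skeletal muscle, had values of 296 and 336 in the GFP+ Pdgfrα- libraries and of 1.29 and 1.53 in the double-negative libraries. Both GFP+ Pdgfrα- libraries lay far above the floor and both double-negative ones close to it. On log2(value + 1) the log2 fold change of 7.04 was the largest of all genes (standard error 0.31, adjusted p = 4.21e-09, limma). *Myf5* (ENSMUSG00000000435; chromosome 10, 106919964 to 106923190, minus strand) and *Myod1* (ENSMUSG00000009471; chromosome 7, 53631844 to 53634462, plus strand) encode the factors that commit cells to the muscle lineage. *Myf5* was 131 and 131 against 0.718 and 0.590, and *Myod1* was 66.6 and 84.8 against 0.718 and 0.825. Their log2 fold changes were 6.32 and 5.43 (adjusted p = 4.01e-08 and 1.51e-07, limma). *Myog*, the factor of differentiating muscle cells, was 141 and 95.3 against 3.59 and 0.354 (log2 fold change 5.55), and the double-negative libraries differed from each other more than the GFP+ Pdgfrα- ones on the log scale.

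All 12 of 12 genes of the muscle precursor list were called higher, from 2.78 to 7.04 with a median of 5.47. The list summed to 1123 and 1142 in GFP+ Pdgfrα- cells and 16.1 and 10.4 in double-negative cells, and to 44.7 and 56.9 in GFP+ and 18.2 and 21.1 in GFP- Pdgfrα+ cells, so that the GFP+ Pdgfrα- libraries stood above the other 6. *Myog* was its most abundant member per kilobase. *Msc*, a repressor of the muscle program, was 92.9 and 104 against 0.144 and 1.30 (log2 fold change 5.93), and *Itga7*, the integrin chain by which muscle cells bind laminin, was 84.4 and 94.3 against 2.15 and 2.24 (log2 fold change 4.82). Genes of other lists rose beside them. *Calcr*, the calcitonin receptor, is listed for osteoclasts and is also made by quiescent satellite cells, and it was 85.8 and 78.3 in GFP+ Pdgfrα- cells against 0.718 and 0.118 (log2 fold change 5.90, adjusted p = 3.24e-07, limma). It was the largest increase of the osteoclast list, whose markers *Acp5* and *Ctsk* moved in opposite directions, *Ctsk* being 4.25 and 4.24 against 0.431 and 1.77.

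Several of the other 15 largest increases are known from muscle as well. *Megf10*, a receptor of satellite cells, was 536 and 496 against 4.74 and 1.77 (log2 fold change 7.02). *Fgfr4*, a fibroblast growth factor receptor of regenerating muscle, was 308 and 329 against 2.73 and 1.06 (log2 fold change 6.85). *Mybpc1*, a slow myosin-binding protein of the sarcomere, was 281 and 301 against 6.18 and 0.590 (log2 fold change 6.43). In each of these genes the GFP+ Pdgfrα- libraries were close to each other. *Dtna* encodes alpha-dystrobrevin of the dystrophin complex. It was 122 and 124 in GFP+ Pdgfrα- and 0.144 and 1.06 in double-negative cells (fold change 6.34 on the log2 scale; adjusted p = 3.01e-08, limma).

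Genes of the contractile fibre rose too. 18 of 21 identifiers (85.7%, against 30.1% of all genes) were called higher and none lower, with a median of 2.61. The count was 15 after median centring and 13 after quantile normalization. The list summed to 1885 and 1708 in GFP+ Pdgfrα- and 108 and 90.9 in double-negative cells. *Ttn* (ENSMUSG00000051747; chromosome 2, 76542037 to 76820604, minus strand), which encodes titin, the spring of the sarcomere, was 914 and 818 against 41.8 and 31.7. The libraries did not overlap, and the log2 fold change was 4.53 (standard error 0.24, adjusted p = 1.97e-08, limma). *Neb*, for nebulin of the thin filament, was 518 and 470 against 18.5 and 23.0 (log2 fold change 4.51), and *Ryr1*, the calcium release channel of skeletal muscle, was 100 and 93.0 against 1.87 and 1.77 (log2 fold change 5.11). The largest increase was that of a troponin gene. *Tnnt1*, the slow skeletal troponin T gene, was 55.7 and 55.7 against 0.431 and 0.354 (log2 fold change 5.35). The embryonic and perinatal myosins *Myh3* and *Myh8* had log2 fold changes of 2.98 and 3.34, and skeletal actin, *Acta1*, the most abundant member per kilobase, one of 2.60 (40.9 and 41.3 against 7.61 and 4.60). *Tnnt3*, of fast fibres, was 5.95 and 11.7 against 3.02 and 0.825 (log2 fold change 1.80).

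GFP+ Pdgfrα- cells were also high in genes of Schwann cell precursors, the glial cells that travel along growing nerves. *Sox10* (ENSMUSG00000033006; chromosome 15, 78985343 to 78994920, minus strand), the transcription factor of neural crest and glia, was 83.2 and 85.8 in GFP+ Pdgfrα- cells against 0.431 and 1.30 in double-negative cells. *Erbb3* (ENSMUSG00000018166; chromosome 10, 128004579 to 128026708, minus strand), the neuregulin receptor on which these cells depend, was 131 and 131 against 4.74 and 2.95. The 2 GFP+ Pdgfrα- libraries were nearly equal and far above the double-negative ones in both genes, with log2 fold changes of 5.56 (standard error 0.41, adjusted p = 3.23e-07, limma) and 4.80 (standard error 0.28, adjusted p = 4.85e-08, limma). *Dhh*, the hedgehog ligand secreted by Schwann cells, was 28.0 and 24.1 against 0.431 and 1.30 (log2 fold change 3.90), and the cadherin gene *Cdh19* was 14.7 and 14.5 against 0.718 and 0.118 (log2 fold change 3.49). The double-negative libraries were near the floor for both genes. *Ednrb*, the endothelin receptor of crest derivatives and the most abundant listed gene per kilobase, was 174 and 176 against 2.15 and 12.1 (log2 fold change 4.77). In all, 13 of 14 measured genes were called higher and none lower, with a median of 3.69 (4.1 with the genes at 0 reads put at their bounds) and sums of 963 and 958 in GFP+ Pdgfrα- and 26.1 and 36.8 in double-negative cells.

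Neural crest factors and the receptors for nerve-derived signals were also higher than in double-negative cells. 9 of 11 neural crest transcription factors (81.8%, against 30.1% of all genes) were called higher, with a median of 2.55, and 5 of the 11 are in another list as well. They summed to 314 and 336 in GFP+ Pdgfrα- cells. The sums were 230 and 208 in GFP+ and 271 and 234 in GFP- Pdgfrα+ cells. *Foxd3*, which keeps crest cells undifferentiated, was 7.41 and 4.24 in GFP+ Pdgfrα- cells and had no read in either double-negative library, a value at least 15-fold higher. *Snai2*, a factor of crest migration, was 57.2 and 47.2 against 1.87 and 5.31 (log2 fold change 3.64). Receptors of nerve-derived factors made a longer list. Of 16 receptors and ligands of the neurotrophin, GDNF and neuregulin families 15 were called higher, with a median of 2.78 (2.95 with bounds). 3 of them, *Erbb3*, *Ngfr* and *Gfra3*, are in the Schwann cell precursor list as well. This list was not highest in GFP+ Pdgfrα- cells, where it summed to 529 and 546. It summed to 27.3 and 28.3 in double-negative, 772 and 851 in GFP+ Pdgfrα+ and 1015 and 943 in GFP- Pdgfrα+ cells. *Gfra3*, the receptor of artemin, was 12.3 and 6.82 and at least 24.6-fold higher, with 0 reads in both double-negative libraries. Its relatives had reads in both populations. *Gfra1*, the receptor of GDNF, was 41.9 and 58.3 against 0.718 and 2.48 (log2 fold change 4.37), and *Gfra2*, that of neurturin, 73.0 and 59.8 against 0.718 and 2.71 (log2 fold change 4.73). *Ngfr*, the shared neurotrophin receptor p75, was 33.6 and 23.3 against 2.44 and 2.71 (log2 fold change 3.02). *Egfr* was 149 and 155 against 6.46 and 8.61 (log2 fold change 4.17).

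Most myelin genes were higher. 10 of 12 (83.3%, against 30.1% of all genes) were called higher and 1 lower, with a median of 2.29. *Drp2*, which organizes the Schwann cell surface around myelin, showed the largest increase, 150 and 168 against 5.60 and 2.48 (log2 fold change 5.06, adjusted p = 1.30e-07, limma). *Pmp22* was 447 and 385 against 35.8 and 35.0 (log2 fold change 3.51), and *Egr2*, the factor that starts myelination, was 95.5 and 142 against 6.75 and 8.61 (log2 fold change 3.77). *Mbp* was the exception, at 53.1 and 33.8 in GFP+ Pdgfrα- and 121 and 108 in double-negative cells (fold change -1.41 on the log2 scale; adjusted p = 0.0400, limma). This adjusted p ranged from 0.000412 to 0.249 over the alternatives, and the call was lost in some of them. *Mag*, of mature myelin, was called higher, 2.79 and 2.19 against 0.431 and 0.354 (log2 fold change 1.32), though not in every alternative (adjusted p = 0.00133 to 0.124 over limma, voom and edgeR fits).

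Markers of neurons were close to the floor. Of 12 listed neuronal genes 5 had values, and the defining markers *Tubb3* (0.850 and 0.129 against 0.144 and 0.354) and *Stmn2* (0.121 and 0.386 against 0.144 and 0.354) were at or under the floor. *Syt1*, the synaptic calcium sensor, was the called one, at 4.73 and 1.93 against 0 reads in both double-negative libraries, at least 8.58-fold higher. *Gfap*, the filament of astrocytes and non-myelinating Schwann cells, was lower, with 0.364 and 0.129 in GFP+ Pdgfrα- and 5.89 and 11 in double-negative cells (fold change -2.87 on the log2 scale; adjusted p = 0.000228, limma). Guidance genes, which axons and many other cells use, were higher in 28 of 30 identifiers (93.3%, against 30.1% of all genes), with a median of 2.36. Receptors and ligands were both represented. *Plxna2*, a semaphorin receptor, was 422 and 401 against 26.0 and 35.5 (log2 fold change 3.71), and *Sema3c* was 62.0 and 67.3 against 3.88 and 2.24 (log2 fold change 4.04).

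Genes of pericytes and smooth muscle, the mural cells of vessels, formed the other large group of increases. 16 of 17 were called higher and none lower, with a median of 4.12 and sums of 3101 and 4016 in GFP+ Pdgfrα- against 116 and 192 in double-negative cells. *Rgs5* (ENSMUSG00000026678; chromosome 1, 171585632 to 171625944, plus strand), a G-protein regulator used as a pericyte marker, was 731 and 1035 against 21.1 and 39.5. *Notch3*, the receptor of vascular smooth muscle, was 420 and 536 against 7.90 and 14.0, and the potassium channel subunit gene *Abcc9* was 202 and 253 against 7.90 and 18.3. No libraries overlapped, and the log2 fold changes were 4.86, 5.36 and 4.12 (adjusted p = 2.38e-08, 2.91e-09 and 1.87e-07, limma). *Acta2*, smooth muscle actin and the most abundant member per kilobase, was 584 and 623 against 21.1 and 23.2 (log2 fold change 4.71), and *Myh11*, its myosin partner, was 131 and 224 against 6.75 and 9.08 (log2 fold change 4.29). *Heyl*, a target of Notch3, had the largest increase of this list and of the Notch list, 295 and 364 against 2.73 and 6.72 (log2 fold change 5.94, adjusted p = 8.68e-09, limma).

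The Notch pathway and the PDGF family shared this direction. Of 13 Notch genes 10 (76.9%, against 30.1% of all genes) were called higher and 1 lower, with a median of 3.75. The receptor gene *Notch1* was 273 and 272 against 5.89 and 15.9 (log2 fold change 4.66), the target gene *Hes1* 74.7 and 60.1 against 7.61 and 1.30 (log2 fold change 3.93), and *Notch2*, also called higher, 417 and 472 against 268 and 235 (log2 fold change 0.82). The ligands did not all follow. *Dll4*, an endothelial ligand, was the one called lower, from values near the floor (0.121 and 0.643 against 2.15 and 1.53). Of 6 PDGF receptor and ligand genes 5 were called higher. *Pdgfrb*, the receptor of mural cells, was 110 and 160 against 7.04 and 9.08 (log2 fold change 3.89), and its level in GFP+ Pdgfrα- cells was close to that in GFP+ Pdgfrα+ cells (169 and 161). Ligand genes were among the called ones. *Pdgfa* was 111 and 143 against 8.19 and 3.18 (log2 fold change 4.36), and *Pdgfc* was 53.3 and 66.5 against 1.58 and 3.18 (log2 fold change 4.2).

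Endothelial genes, whose cells were depleted through CD31, did not move with the mural genes. 2 of 13 (15.4%, against 30.1% of all genes) were called higher and 1 (7.69%, against 23.6%) lower. After median centring 4 were called lower (median -1.15) and after quantile normalization 3 (median -1.11). The median on the deposited scale was -0.70, but it ranged from -1.34 to 0.41 when a library was left out, so that its sign depended on single libraries, with sums of 82.9 and 157 in GFP+ Pdgfrα- and 71.7 and 216 in double-negative cells. In both populations replicate 2 was the higher library. *Cdh5*, the cadherin of endothelial junctions and the most abundant member per kilobase, was 7.16 and 22.0 against 11.6 and 48.0, and *Kdr*, a VEGF receptor, 5.22 and 6.56 against 3.02 and 22.0, both with overlapping libraries. In each replicate *Cdh5* was lower in GFP+ Pdgfrα- cells, and it was called with the replicate block for the pairing of pools (adjusted p = 0.0404, limma) but not in the main fit (adjusted p = 0.259, limma). The called genes were exceptions. *Tek*, the angiopoietin receptor, was the largest increase, 27.3 and 39.5 against 0.718 and 6.25 (log2 fold change 3.26, adjusted p = 0.000178, limma). *Vwf* was the one called lower, 20.5 and 16.3 against 26.6 and 47.8 (log2 fold change -0.92), and this call was not kept in every alternative (adjusted p = 0.00329 to 0.300).

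Matrix genes were higher in GFP+ Pdgfrα- cells almost throughout. All 18 interstitial matrix genes were called higher, with a median of 2.56. *Col1a1* (ENSMUSG00000001506; chromosome 11, 94797538 to 94814356, plus strand), a chain of the main collagen of bone and skin, was 3099 and 2562 against 435 and 560 (log2 fold change 2.51, adjusted p = 1.91e-07, limma), far under its 51185 and 38311 in GFP+ Pdgfrα+ cells. Fibrous collagens and microfibrils shared the change. *Col3a1*, of soft connective tissue, was 1318 and 1168 against 122 and 106 (log2 fold change 3.44), and *Fbn1*, for fibrillin of microfibrils, had the largest increase, 891 and 1005 against 22.0 and 56.0 (log2 fold change 4.71). Of 22 genes of basement membrane and its integrin receptors 21 were called higher and none lower, with a median of 4.0. *Lama2* (ENSMUSG00000019899; chromosome 10, 26701094 to 27336748, minus strand), the laminin chain of muscle and Schwann cell basement membranes, was 880 and 956 against 13.1 and 15.7. The double-negative libraries were low and the GFP+ Pdgfrα- libraries close to each other, with a log2 fold change of 5.91 (standard error 0.14, adjusted p = 2.64e-10, limma). *Lamc1*, the shared gamma chain, was 1514 and 1928 against 35.2 and 46.3 (log2 fold change 5.37), and *Col4a1* was 1016 and 1289 against 31.7 and 58.1 (log2 fold change 4.70).

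Among the largest increases were also less common matrix genes. *Col20a1*, a fibril-associated collagen gene, was 129 and 153 against 0.431 and 0.354 (log2 fold change 6.67). *Hmcn2*, for the large extracellular protein hemicentin 2, was 609 and 707 against 4.74 and 6.48 (log2 fold change 6.65). *Col6a6* and *Col15a1*, of microfibrillar and basement membrane collagens, had log2 fold changes of 6.39 and 6.08. The others of the 15 come from different families. *Prox1*, a homeobox factor, was 236 and 249 against 2.44 and 2.00 (log2 fold change 6.24), and *Dcx*, for the microtubule protein doublecortin of migrating neurons, was 149 and 142 against 0.718 and 1.30 (log2 fold change 6.2). *Agtr2*, the type 2 angiotensin receptor, was 430 and 495 against 5.60 and 5.54 (log2 fold change 6.14). *Zdbf2*, an imprinted gene, and *Fndc3c1*, on the X chromosome, had log2 fold changes of 6.26 and 6.67.

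Cartilage genes were higher on the double-negative side. 15 of 21 were called lower in GFP+ Pdgfrα- cells and 2 higher, with a median of -2.13. *Col2a1* (ENSMUSG00000022483; chromosome 15, 97806033 to 97835155, minus strand), the main cartilage collagen and the most abundant member per kilobase, was 12 and 48.2 in GFP+ Pdgfrα- and 371 and 753 in double-negative cells. The libraries did not overlap although those of each population differed by more than for most genes, and the log2 fold change was -4.39 (standard error 0.70, adjusted p = 0.000199, limma). *Acan*, for the proteoglycan aggrecan, was 21.0 and 12.2 against 67.4 and 80.1 (log2 fold change -2.13), and *Col10a1*, of hypertrophic cartilage, was 14.2 and 27.9 against 63.9 and 73.5 (log2 fold change -1.73). The transcription factors of cartilage did not move as one. *Sox6* was 42.6 and 44.4 against 204 and 227 (log2 fold change -2.28), a factor of chondrocytes that red cell precursors use too. Its partners *Sox9* (33.1 and 31.3 against 8.76 and 10.7, log2 fold change 1.63) and *Sox5* (29.5 and 41.5 against 8.76 and 5.78, log2 fold change 2.15) were the called increases.

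Bone genes lay on the other side. 13 of 18 osteoblast identifiers (72.2%, against 30.1% of all genes) were called higher and none lower, with a median of 2.32, and the list summed to 9558 and 8776 in GFP+ Pdgfrα- cells, 1211 and 1710 in double-negative and 117867 and 88465 in GFP+ Pdgfrα+ cells. *Ibsp*, for bone sialoprotein, was 152 and 135 against 8.47 and 13.1 (log2 fold change 3.64, adjusted p = 1.49e-07, limma), and *Dmp1*, a matrix protein of osteocytes, was 45.5 and 33.3 against 2.15 and 2.00 (log2 fold change 3.70). *Bglap*, for osteocalcin, was 4.49 and 3.99 and had no read in the double-negative libraries, at least 10.9-fold higher, though its reads can be split with a neighbouring copy. Genes of soft connective tissue did not share one direction. Tendon and fibroblast genes were divided, with 8 of 17 called higher (47.1%, against 30.1% of all genes) and 4 lower, the latter at the share of all genes (23.5% and 23.6%), and the sign of their median depended on the scale (0.12 as deposited, -0.34 after median centring). *Dpt*, for dermatopontin, rose from 3.02 and 1.06 to 110 and 96.1 (log2 fold change 5.17), whereas the tendon genes *Thbs4* (7.41 and 6.30 against 46.7 and 53.4, log2 fold change -2.70) and *Tnmd* (5.95 and 4.76 against 18.0 and 19.9, log2 fold change -1.65) were lower. The tendon factor *Scx* was called higher, 3.04 and 3.22 against 0.431 and 0.590 (log2 fold change 1.45, adjusted p = 0.00580, limma).

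Factors that support blood stem cells were higher in GFP+ Pdgfrα- than in double-negative cells, but their sum was highest in GFP+ Pdgfrα+ cells. 6 of 8 (75.0%, against 30.1% of all genes) were called higher and none lower, with a median of 1.98. After median centring 5 were called higher, and after quantile normalization 5. The list summed to 281 and 334 in GFP+ Pdgfrα- and 38.8 and 53.3 in double-negative cells. In the Pdgfrα+ libraries it summed to 1311 and 1122 in GFP+ and 545 and 467 in GFP- cells. *Cxcl12* (ENSMUSG00000061353; chromosome 6, 117118553 to 117131385, plus strand), the chemokine that holds stem cells in marrow, was 62.0 and 73.4 against 9.33 and 17.1 (log2 fold change 2.32, adjusted p = 3.89e-06, limma). *Vcam1* was 93.8 and 109 against 7.90 and 6.25 (log2 fold change 3.67), *Jag1*, a Notch ligand, 65.2 and 90.9 against 5.60 and 4.13 (log2 fold change 3.75), and *Angpt1* 10.6 and 11.4 against 3.30 and 2.48 (log2 fold change 1.63). *Kitl*, for stem cell factor, was 7.16 and 11.7 against 4.16 and 4.13 (log2 fold change 0.98, adjusted p = 0.0104, limma, and 0.00490 to 0.311 over the alternatives). *Lepr*, the leptin receptor of adult marrow stroma, was not called and its libraries overlapped (13.7 and 13.5 against 5.89 and 13.6). Outside this list, *Ly6a*, for the antigen Sca1, was near the floor in both populations (0.850 and 0.643 against 1.01 and 2.00). Fat cell genes were looked at too. Adipocyte genes were close to the background, 3 of 8 called higher (37.5%, against 30.1% of all genes; median 0.52), with *Adipoq* at 8.86 and 3.73 against 7.90 and 2.71 and *Pparg*, the main fat cell regulator, at 8.38 and 3.22 against 2.15 and 0.825 (log2 fold change 1.39).

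Genes that respond within minutes to stimulation or heat were higher in GFP+ Pdgfrα- cells. 20 of 23 were called higher and 1 lower, with a median of 2.67 and sums of 7645 and 9256 against 2665 and 2585. *Egr1*, an early response factor and the most abundant member per kilobase, was 3295 and 3811 against 177 and 249 (log2 fold change 4.07, adjusted p = 2.38e-08, limma). *Fos* was 465 and 505 against 24.3 and 27.7 (log2 fold change 4.17), and the heat shock gene *Hspa1a*, whose near-identical copy can share its reads, was 453 and 729 against 53.6 and 91.9 (log2 fold change 3.02). The libraries of the populations were apart in each. The chaperone gene *Hsp90aa1* was the one lower, 644 and 682 against 1738 and 1396 (log2 fold change -1.23). These genes are known to respond to tissue digestion and sorting, which all populations underwent, and the part of handling was not tested. Of 10 targets of p53 3 (30.0%, against 30.1% of all genes) were called higher and 5 (50%, against 23.6%) lower, with a median of -0.68. *Cdkn1a*, the cell cycle inhibitor p21, was 119 and 131 against 13.1 and 13.1 (log2 fold change 3.16, adjusted p = 2.18e-07, limma). *Mdm2* was not called (95.1 and 84.0 against 99.8 and 112, log2 fold change -0.24), whereas *Sesn2* was lower, 4.49 and 3.99 against 20.2 and 22.3 (log2 fold change -2.09).

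Long noncoding RNAs kept in the nucleus were higher than in double-negative cells as well, all 5 of 5 (against 30.1% of all genes). They summed to 10710 and 9803 in GFP+ Pdgfrα- and 3663 and 4440 in double-negative cells. The Pdgfrα+ libraries were not lower throughout, with 9068 and 9824 in GFP+ and 13393 and 15282 in GFP- cells. *Meg3* (ENSMUSG00000021268; chromosome 12, 110779211 to 110809936, plus strand), an imprinted transcript made from the maternal copy, was 1487 and 1519 against 28.0 and 43.0. Both GFP+ Pdgfrα- libraries lay above both double-negative ones by a wide margin (log2 fold change 5.39, standard error 0.18, adjusted p = 5.88e-10, limma), and its neighbour *Rian*, from the same imprinted cluster, did so too (log2 fold change 5.26). *Malat1* was 8182 and 7247 against 3561 and 4265 (log2 fold change 0.98). Intermediate filament genes, the family of nestin, were divided. Of this list, 5 of 9 (55.6%, against 30.1% of all genes) were called higher and 2 (22.2%, against 23.6%) lower, with a median of 1.45. *Vim*, for vimentin of mesenchymal cells and the most abundant member per kilobase, was 1438 and 1460 against 70.8 and 79.8 (log2 fold change 4.25), and *Des*, for desmin of muscle and mural cells, was 90.9 and 113 against 2.44 and 2.48 (log2 fold change 4.88). Of 2 measured epithelial genes, *Trp63* was 17.1 and 27.4 against 0 reads in both double-negative libraries, at least 57.3-fold higher, and *Cdh1*, from values near the floor, was called higher (1.09 and 1.93 against 0.144 and 0.118), though not in every alternative.

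The effect of GFP differed between cells without and with Pdgfrα. The interaction, the log2 fold change among Pdgfrα- cells minus that among Pdgfrα+ cells, was called in 7031 genes (44.3%) in limma, 3999 positive (25.2%) and 3032 negative (19.1%). Among Pdgfrα+ cells GFP itself separated 849 genes (5.35%). Of the 511 higher ones, 254 (49.7%, against 30.1% of all genes) were also called higher among Pdgfrα- cells. Of the 338 lower ones, 54 (16.0%, against 23.6%) were also called lower. The comparisons share no library. 181 were lower with GFP among Pdgfrα+ cells and higher among Pdgfrα- cells (53.6% of the lower ones, against 30.1% of all genes), and 135 the reverse (26.4% of the higher ones, against 23.6%).

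All 12 muscle precursor genes, 17 of 17 mural genes and 11 of 14 Schwann cell precursor genes had a called positive interaction, beside 25.2% of all genes. The erythroid list (18 of 18) and the cell cycle list (23 of 23) had called negative ones throughout, beside 19.1% of all genes. Among Pdgfrα+ cells, the erythroid list had a median of 0.03 and the cell cycle list one of 0.72. Osteoblast genes behaved otherwise, with 8 negative and 3 positive interactions among 18 identifiers, and their median was 3.1 among Pdgfrα+ cells against 2.32 among Pdgfrα- cells. Single genes show the kinds of difference. *Ibsp* rose more with GFP among Pdgfrα+ cells (2466 and 1774 against 61.6 and 38.2), and its interaction was -1.76 (adjusted p = 0.00144, limma). *Dcx*, *Mstn*, the gene of the muscle growth inhibitor myostatin, and *Chodl*, a lectin gene of muscle and nerve, had the largest positive interactions (8.0, 7.63 and 7.33). *Hba-a2*, *Mylk3*, a myosin kinase gene, and *Slc4a1* had the largest negative ones (-7.71, -7.69 and -7.53). *Mstn* was 41.9 and 44.4 in GFP+ Pdgfrα- cells and had no read in the double-negative libraries, at least 111-fold higher. Some genes fell with GFP on both sides. *Tnmd* was lower in GFP+ cells on both sides of the Pdgfrα sort, from 407 and 360 to 21.4 and 28.3 among Pdgfrα+ cells, and its interaction was 2.25 (adjusted p = 7.84e-05, limma). For *Cxcl12* and *Kitl* the interaction was not called (0.20 and -0.21, adjusted p = 0.659 and 0.709, limma).

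**Figure D2:**
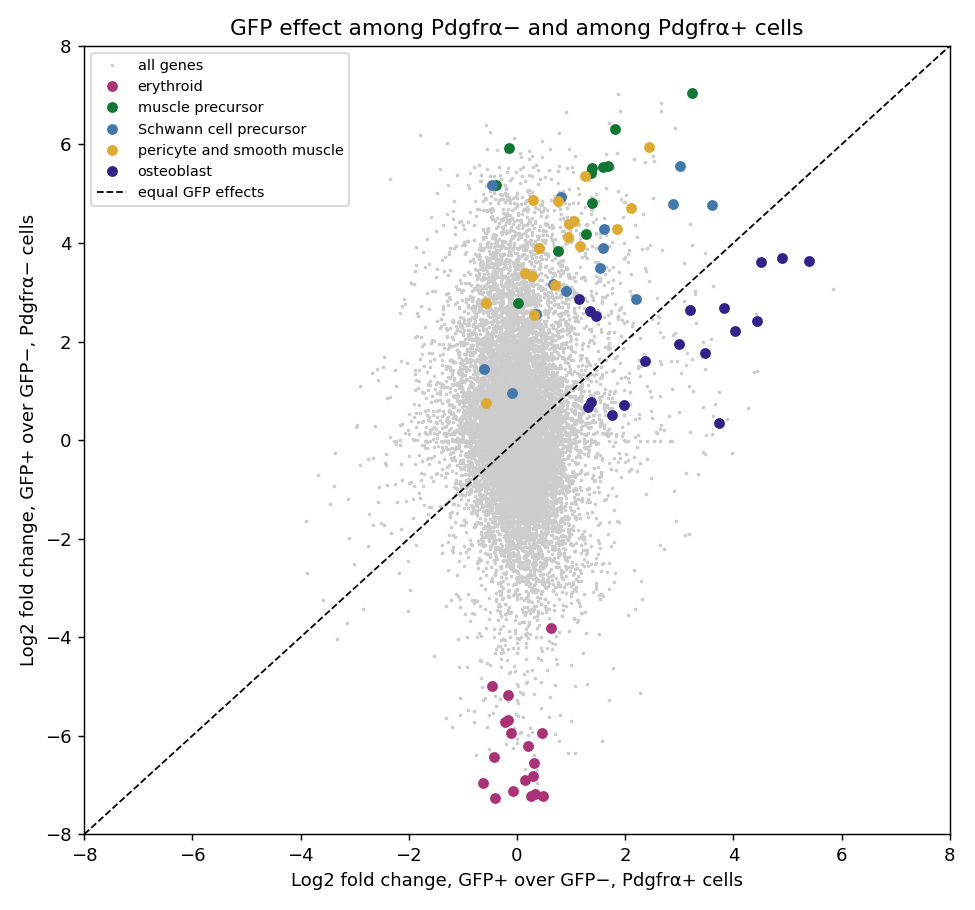
Effect of GFP (log2 fold change) among Pdgfrα- cells (vertical axis) against that among Pdgfrα+ cells (horizontal axis) for all genes (grey) and the members of 5 lists (colours), with a dashed line where both are equal. Erythroid genes lie near 0 on the horizontal axis, with a median of 0.03, and between -7.27 and -3.82 on the vertical axis.

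Promoter sequences are shown for the erythroid and muscle precursor lists, 2 of the lists with all measured members called one way, which were chosen after their values were seen. They were taken from RefSeq for the build GRCm38.p6, 250 bases before to 50 after a gene's start, and the words AGATAA, read by GATA factors of red cell precursors, and CAGCTG, an E-box read by the muscle factors of the Myod1 family, were searched on both strands. Promoters were matched for 11 of 20 erythroid genes and 7 of 12 muscle precursor genes. AGATAA was in 4 of 12 erythroid promoters (33.3%) and 1 of 7 muscle precursor promoters (14.3%), and in 11.2% of all 32851 promoters. CAGCTG was in 2 of 7 muscle precursor promoters (28.6%) and 2 of 12 erythroid promoters (16.7%), in 5 of 12 promoters of pericyte and smooth muscle genes (41.7%), in 1 of 11 of Schwann cell precursor genes (9.09%), and in 16.3% of all. In these 2 further lists AGATAA was in 1 of 12 (8.33%) and 0 of 11 promoters. *Chrna1* and *Chrng*, acetylcholine receptor subunit genes of the muscle precursor list, are the 2 muscle genes with the E-box and were chosen after their values were seen. *Chrna1* was 66.4 and 54.2 in GFP+ Pdgfrα- cells against 3.88 and 1.30 in double-negative cells, and *Chrng* was 4.73 and 14.0 against 0.144 and 0.590. Capitals mark AGATAA or its reverse complement TTATCT in the first 2 sequences and CAGCTG in the last 2, and the other word is left unmarked. A match is a description of the letters and no evidence of binding.
*Alas2* (chrX:150547167-150547466, plus strand): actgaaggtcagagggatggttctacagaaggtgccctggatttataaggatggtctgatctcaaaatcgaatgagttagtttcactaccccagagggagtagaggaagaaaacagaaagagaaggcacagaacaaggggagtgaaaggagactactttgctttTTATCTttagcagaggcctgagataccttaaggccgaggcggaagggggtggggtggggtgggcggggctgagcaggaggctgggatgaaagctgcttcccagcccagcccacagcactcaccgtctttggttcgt
*Hemgn* (chr4:46404134-46404433, minus strand): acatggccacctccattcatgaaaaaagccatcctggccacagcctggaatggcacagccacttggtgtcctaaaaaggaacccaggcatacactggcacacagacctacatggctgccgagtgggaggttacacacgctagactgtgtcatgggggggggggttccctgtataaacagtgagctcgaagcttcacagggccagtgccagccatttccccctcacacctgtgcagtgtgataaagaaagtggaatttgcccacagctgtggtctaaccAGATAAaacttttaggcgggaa
*Chrna1* (chr2:73580289-73580588, minus strand): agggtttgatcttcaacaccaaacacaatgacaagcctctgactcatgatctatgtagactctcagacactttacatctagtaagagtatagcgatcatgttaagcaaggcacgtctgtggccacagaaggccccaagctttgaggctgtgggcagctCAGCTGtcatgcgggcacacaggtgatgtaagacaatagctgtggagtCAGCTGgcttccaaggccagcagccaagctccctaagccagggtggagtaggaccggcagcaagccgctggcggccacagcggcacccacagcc
*Chrng* (chr1:87205561-87205860, plus strand): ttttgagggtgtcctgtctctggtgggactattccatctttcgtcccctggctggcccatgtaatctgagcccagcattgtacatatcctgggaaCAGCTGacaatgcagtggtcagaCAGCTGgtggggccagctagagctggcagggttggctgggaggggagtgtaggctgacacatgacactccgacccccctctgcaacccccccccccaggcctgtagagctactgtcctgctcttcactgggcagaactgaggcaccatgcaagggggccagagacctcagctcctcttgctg

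Exact permutation of 2 against 2 libraries gives no two-sided p under 0.333, so that the calls depend on the pooling of spread by limma. The libraries are pools of pups, and GFP, erythroid content and mitochondrial share changed together between these populations and cannot be told apart.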

How the data were processed

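The deposited table holds 8 RNA-seq libraries of 4 sorted populations of cells from newborn mouse bone, 2 per population. The authors trimmed adaptors with cutadapt, quantified with RSEM 1.17 on the transcriptome of NCBIM37 and normalized with limma, and deposited the result as a normalized signal on a linear scale. Reads were recovered from this signal, with 100% of the values whole within 0.01 reads. Reads per library lay between 3221217 and 5302762. In edgeR the reads had a common biological coefficient of variation of 0.188, with 2 libraries per population. The limma calls did not use this value, since limma estimated a spread for each gene. Of 15880 identifiers, 15849 matched GENCODE M1 and 31 did not, and identifiers sharing a symbol were kept apart.

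All 8 libraries entered 1 fit of log2(value + 1) by population in limma 3.58.1 (R 4.3.3; lmFit and eBayes, trend on). The comparisons were GFP+ against GFP- cells among Pdgfrα- cells, the same among Pdgfrα+ cells, and the interaction. The Benjamini–Hochberg adjustment covered all 15880 genes, and calls needed an adjusted p of 0.05 or less. Tables and figures were made in Python 3.11.15 with pandas 2.3.3, numpy 2.4.6, scipy 1.17.1 and matplotlib 3.10.9, and the code was tested on simulated data.

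The populations of a replicate may come from the same littermates. *Xist* was low in replicate 1 and high in replicate 2 in all populations, and the correlation of the residuals of the compared populations was 0.0602, and the main fit used no replicate block.

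Genes were named by a rule: genes the study names, the 15 largest increases and decreases, in each list the defining markers, up to 5 members with the highest means and the largest called change in each direction, 3 interaction genes per direction, and the 5 highest genes of each population. Not every gene that meets it is reported here. The members and lists were chosen with earlier results of these data known. For 33 of the 163 genes in the text an exon overlaps another gene, and their reads are uncertain.

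Alternatives were median centring, quantile normalization, a rescaling without mitochondrial genes, a pseudocount of 0.1, a low-value filter, stricter thresholds, no variance trend, a fit of the 4 Pdgfrα- libraries alone, a replicate block, leaving out each library or replicate, and edgeR 4.0.16 and voom on the recovered reads.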

Additional observations from a re-analysis of the deposited data

Results flagged for a closer look

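The difference between the GFP effects among Pdgfrα- and among Pdgfrα+ cells, tested as an interaction in limma, was called for 7031 genes, which flagged the comparison as a whole. Of these genes *Dcx* (8.0), *Mstn* (7.63) and *Chodl* (7.33) had the largest positive differences on the log2 scale, and *Hba-a2* (-7.71), *Mylk3* (-7.69) and *Slc4a1* (-7.53) the largest negative ones. *Mylk3* was 0.850 and 0.386 in GFP+ Pdgfrα- cells and 106 and 114 in double-negative cells, against 6.77 and 1.29 in GFP+ Pdgfrα+ cells and 0.378 and 0.446 in GFP- Pdgfrα+ cells. The causes were not tested.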

How the results depend on the processing

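The count of called genes between GFP+ Pdgfrα- and double-negative cells, 8527 in limma, was 8427 with the 4 Pdgfrα- libraries alone, 8581 with a replicate block for the pairing of the pools, and 7053 to 7497 when each library was left out, where the lone library was assumed to vary like the other groups. It was 9119 after median centring, 8290 after quantile normalization, 8490 without mitochondrial genes, 8158 without the variance trend, 8376 after the filter, 8454 with a pseudocount of 0.1, 6705 at the stricter threshold, 8651 with voom and 8415 with edgeR on recovered reads. The interaction count, 7031, ranged from 5000 at the stricter threshold to 7416 after median centring.

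Among the 163 genes in the text the sign changed for 12, and none of these was called in the main fit. After median centring *Adipoq* turned from 0.25 to -0.20, *Aldoa* from 0.20 to -0.26, *Tubb3* from 0.22 to -0.24, *Rpl10* from 0.04 to -0.41 and *Stmn2* to -0.45. After quantile normalization *Adipoq* was -0.35, *Tubb3* -0.23, *Stmn2* -0.37, *Cox4i1* 0.03 (from -0.14) and *Rps4x* 0.05 (from -0.29). With voom *Rpl10* was -0.0097 and *Stmn2* -0.14, with edgeR -0.082 and -0.081, and *Stmn2* was -0.02 with a pseudocount of 0.1. When a library or replicate was left out, log2 fold changes ranged from -0.38 to 0.88 (*Adipoq*), -0.00065 to 0.40 (*Aldoa*), -1.67 to 1.40 (*Cd79a*), -1.84 to 0.12 (*Cdh5*), -0.51 to 0.22 (*Cox4i1*), -1.75 to 0.77 (*Kdr*), -0.0053 to 1.1 (*Lepr*), -0.41 to 0.49 (*Rpl10*), -0.15 to 0.16 (*Stmn2*), -0.26 to 0.69 (*Tubb3*) and -0.75 to 0.099 (*Tyrobp*). The cause was not tested.

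Of 163 genes in the text, 15 lost their call and 10 gained one under at least 1 alternative. Depth limits genes near 3 reads, where a change of a few reads moves the value by its own size.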

Other observations

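*Xist*, the transcript of the inactive X chromosome, was 4.98, 11.3, 2.90 and 8.95 in the replicate 1 libraries of GFP+ Pdgfrα-, double-negative, GFP+ Pdgfrα+ and GFP- Pdgfrα+ cells. In replicate 2 it was 1051, 1351, 868 and 1380. The sex of the pups is not given in the labels.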
